A study of Mus musculus with 6 samples.

Results

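The genes described here are 32 genes of cholesterol synthesis, its control, and lipoprotein transport, taken by symbol from a table of 55573 mouse genes. They comprise 15 enzymes of the mevalonate and sterol pathway, 4 genes of SREBP control, 3 genes of sterol transport inside the cell, 7 genes of export, uptake and LXR signalling, and 3 genes of fatty acid synthesis and desaturation. All 32 were found, and 25 had enough counts to be tested. The comparison asks how synthesis and export genes differ in cells sorted as RGCs (retinal ganglion cells, the output neurons of the retina) when Cre is given to floxed Myh9 and Myh10 retinas. Both groups were C57BL/6 mice carrying floxed Myh9 and Myh10. The 3 dKO libraries came from eyes injected with AAV2-Cre and the 3 WT libraries from eyes injected with AAV2-GFP, 2 weeks before the retinas were taken. The libraries labelled WT therefore carry the floxed alleles and a virus too. Each library pooled 3 retinas of 3 mice, and the sources used here give neither the promoter that drove Cre nor the age of the mice. The labels do not say whether replicates share mice, so p-values speak of the spread among 6 libraries, part of which may be technical.

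Cholesterol is made from acetyl-CoA through mevalonate, isoprenoids, squalene and lanosterol. When sterols in the endoplasmic reticulum run low, SCAP escorts the SREBP transcription factors to the Golgi, where they are cut and released to turn on synthesis genes. INSIG1 holds SCAP back when sterols are plentiful. Sterol excess instead forms oxysterols, which activate the LXR receptors and with them the exporters ABCA1 and ABCG1 and the carrier apolipoprotein E. In retina and brain, Müller glia, astrocytes and microglia make apolipoprotein E particles, and neurons take them up through receptors such as LRP1.

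The libraries held 4569880 to 6146226 counts, but one ribosomal RNA row took most of them, and 346037 to 1636581 counts lay outside it. The deepest of these, dKO replicate 3, held 3.53 times the mean of the other 5 libraries. It carried 1085 of the counts for the 15 synthesis enzymes, against 326 and 247 in dKO replicates 1 and 2 and 209 to 282 in the WT libraries. Levels are in CPM, counts relative to the TMM-scaled total of their library. Myh9 was at 62.7 ± 4.13 CPM in dKO and 64.2 ± 3.91 CPM in WT, and Myh10 at 17.996 ± 3.39 CPM in dKO and 18.7 ± 2.08 CPM in WT (SD, n = 3 each). Neither targeted gene passed edgeR's quasi-likelihood test (adjusted p = 0.908 and 0.735), and whole-gene counts do not check the floxed part. RGC markers were sparse. The 10 RGC markers summed to 0.0275% ± 0.000544 of the non-ribosomal counts in dKO and 0.0230% ± 0.000894 in WT, against 2.60% ± 0.116 and 2.46% ± 0.0495 for 9 Müller glia and astrocyte markers (SD, n = 3 each). Pou4f1 had 0 counts in WT replicates 2 and 3, and Pou4f2 had 0 in dKO replicate 1 and in all 3 WT libraries. Which cells the lipid gene reads came from was not tested, and fewer cells of a type and less RNA per cell cannot be told apart in these libraries.

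Apoe dominated the lipid transcripts. Levels of different genes were set side by side per kilobase of merged exons. Merged exons take in every annotated exon and can be longer than the transcript expressed, so the order of genes depends partly on annotation. On that scale Apoe stood at 333 ± 12.7 CPM in dKO and 300.4 ± 12.7 CPM in WT (SD, n = 3 each). Clu, a gene of the wider pathway outside these 32, stood at 212 ± 9.29 CPM per kilobase in dKO and 187 ± 8.54 in WT. The next of the 32 in that order was Scd2, a stearoyl-CoA desaturase of neural tissue, at 21.2 ± 0.362 and 21.1 ± 0.443 CPM per kilobase. Npc2 (7.51 ± 0.369 and 6.53 ± 0.672) and Lrp1 (4.84 ± 0.399 and 5.87 ± 0.528) came next. Fasn at 3.83 ± 0.613 and 3.57 ± 0.287 and Srebf1 at 3.79 ± 0.350 and 3.49 ± 0.196 followed, and Fasn and Srebf1 differed from each other by less than their SD. Among the synthesis enzymes Hmgcs1 had the highest group means, at 2.74 ± 0.559 in dKO and 3.00 ± 0.142 in WT. Lpl, lipoprotein lipase, and Fdps, farnesyl diphosphate synthase, stood last at 0.0510 ± 0.0260 and 0.133 ± 0.0847 in dKO and 0.0483 ± 0.0221 and 0.0675 ± 0.0765 CPM per kilobase in WT.

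**Figure D1:**
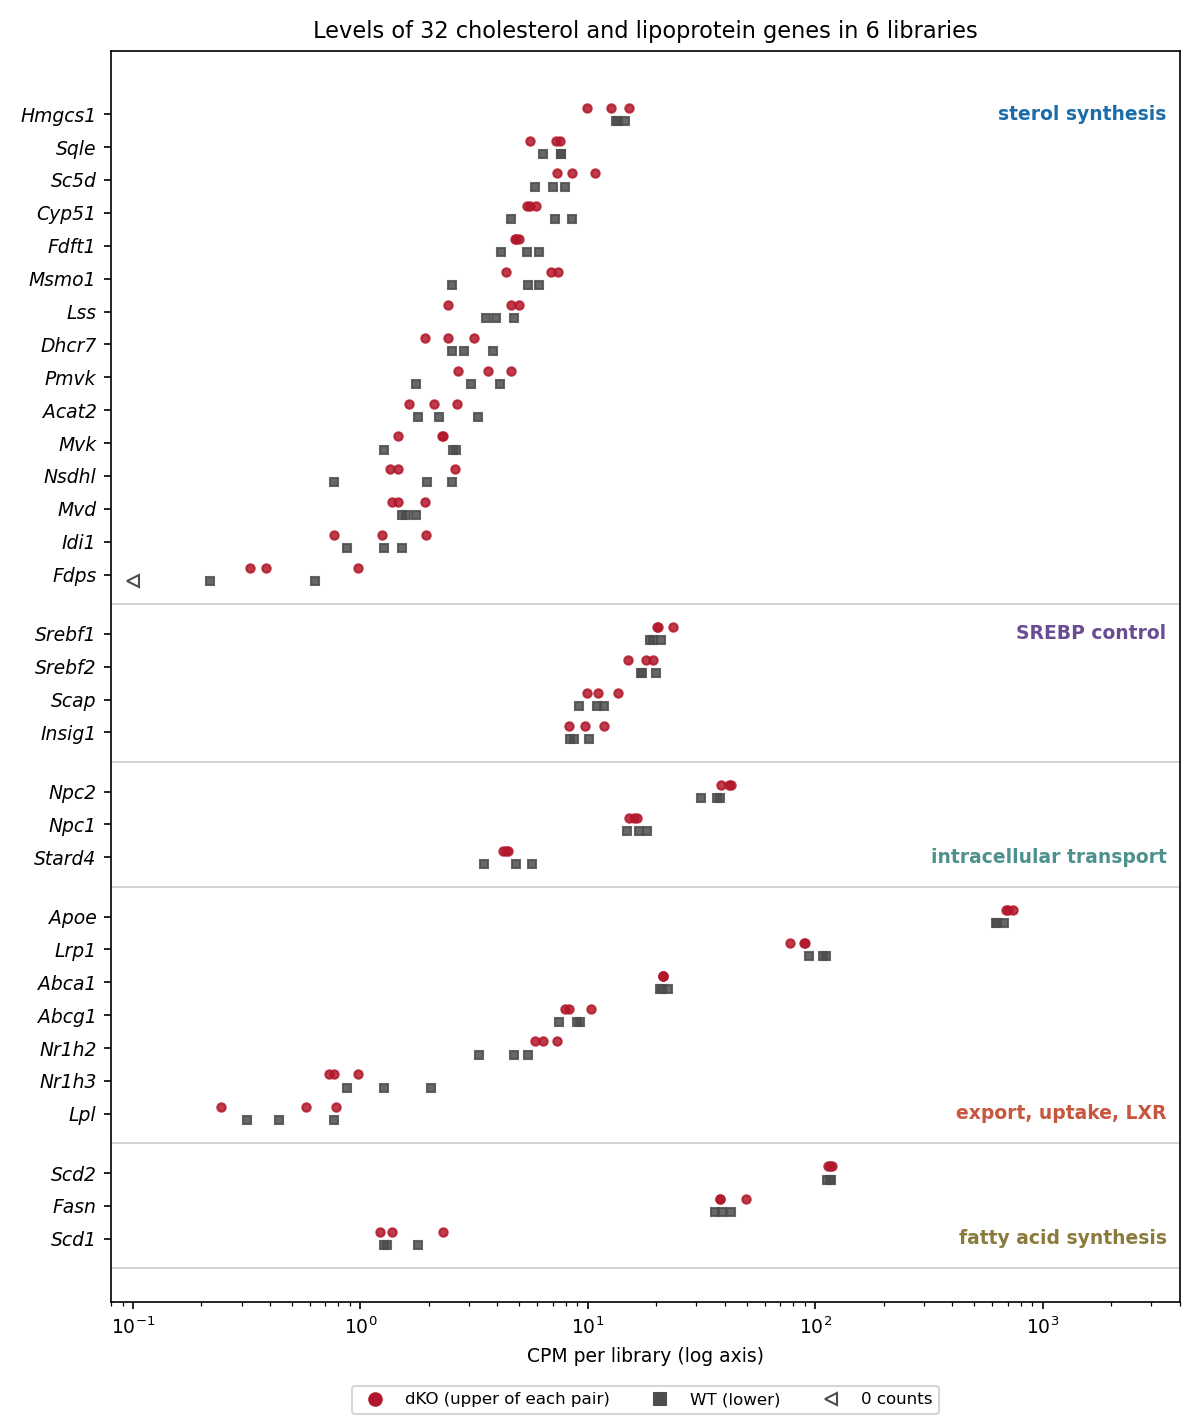
CPM of each gene in each library on a log axis, grouped by role and ordered by WT mean, with dKO as red circles above WT as grey squares and a library with 0 counts as an open triangle at the left edge. Apoe lies between 623 and 743 CPM, and the 15 synthesis enzymes lie at or below 15.1 CPM in every library, with the red and grey points mostly interleaved.

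No member passed the test over all genes. Of 8444 genes tested, 1.92% were called in either direction (adjusted p under 0.05 by edgeR's quasi-likelihood test with Benjamini-Hochberg adjustment), 0.734% higher and 1.18% lower in dKO. Of the 25 tested members, 0 were called higher and 0 lower. An unadjusted p under 0.05 was reached by 2 of the 25, Lrp1 and Sc5d, or 8% against 12.5% of all genes tested. The 3 dKO and 3 WT values did not overlap for 4 of the 25, or 16% against 17.0% of all genes tested. Of those 4, 3 lay higher in dKO (background 8.66%) and 1 lower (background 8.31%). Both overall shares lie near or below the background. A positive log2 fold change was seen for 14 of the 25, against 49.8% of all genes tested. The median log2 fold change was 0.011 over the 25 members and -0.00072 over all genes tested. DESeq2 also called 0 members, limma-voom called Apoe higher and Lrp1 lower, and a robust dispersion fit called Lrp1 lower. The 95% intervals kept 23 of the 25 members within a 2-fold change either way and 16 within 1.5-fold. Dhcr7 and Acat2, with lower bounds of 0.4996-fold and 0.460-fold, were the 2 exceptions at 2-fold.

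**Figure D2:**
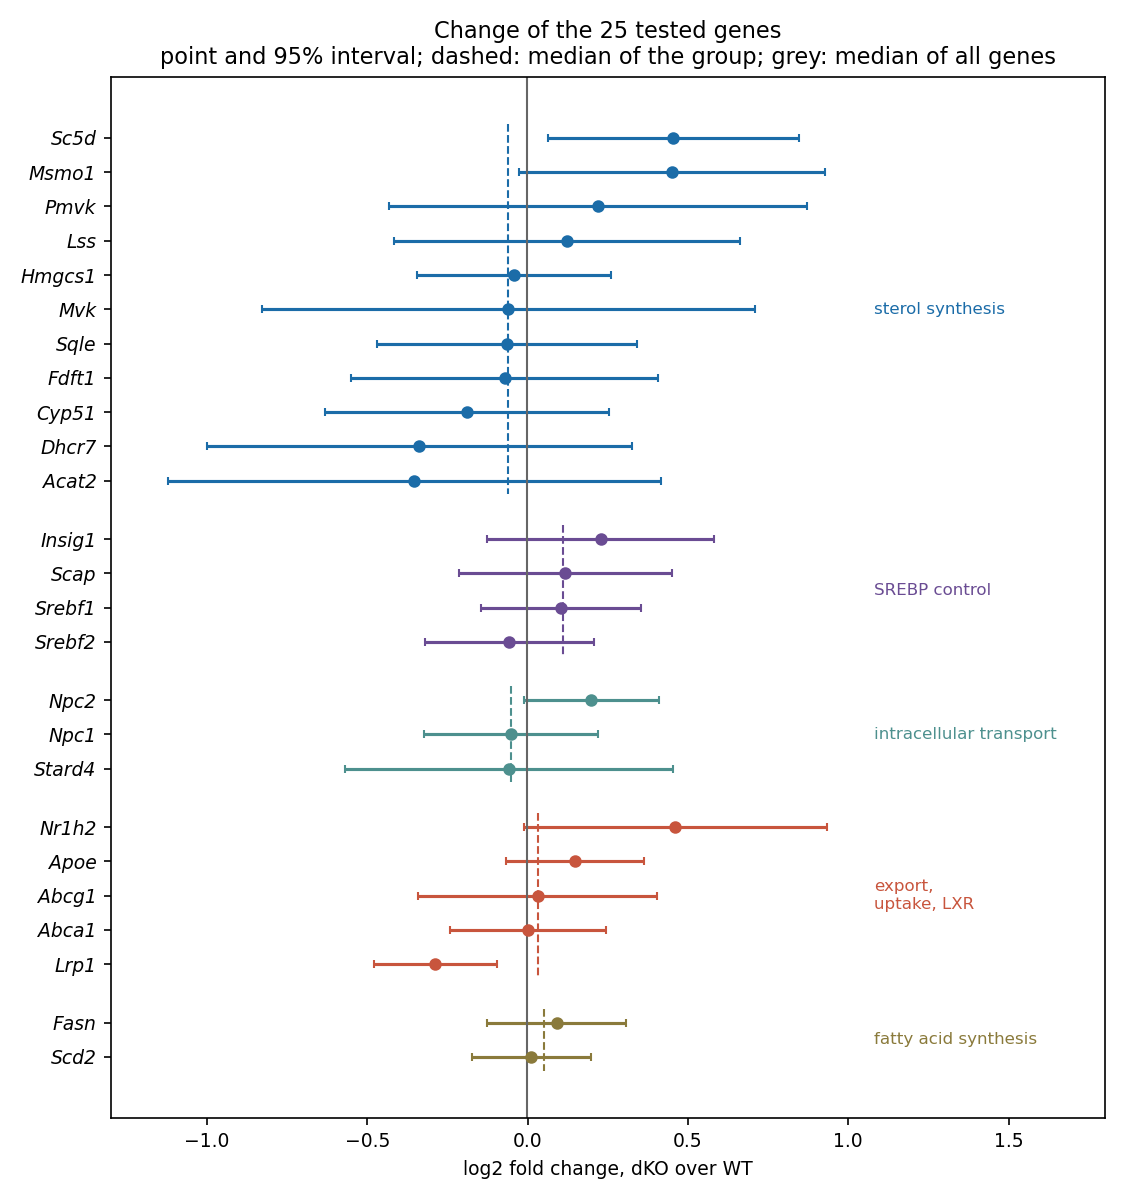
Log2 fold change of dKO over WT for the 25 tested genes, with 95% intervals, grouped by role; dashed lines are group medians and the grey line is the median of all genes tested. Sc5d and Lrp1 are the genes whose unadjusted intervals leave out 0, and no gene passed the adjusted threshold.

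The promoters of synthesis genes and of export, uptake and LXR genes differed in their motif letters. RefSeq promoter windows (GRCm38.p6, from 250 bases before to 50 after a transcription start) were at hand for 23 of the 32 members, 32 windows in all. Both strands were searched for CCAAT, the box bound by NF-Y, a common partner of SREBP, for GGGCGG, bound by Sp factors, for the sterol response letters TCACNCCAC and for the LXR direct repeat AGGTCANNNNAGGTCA. No matches of different motifs shared bases. CCAAT was present for 11 of 12 synthesis enzymes with a window and for 0 of 5 export, uptake and LXR genes, against 41.1% of all genes with a window. Counted by window, the shares were 73.3%, 0% and 37.4%. GGGCGG was found for 11 of 12 synthesis enzymes and 2 of 5 export, uptake and LXR genes (Abca1 and Lrp1), against 38.2% of all genes. TCACNCCAC was found in 1 member, Hmgcs1, and in 1.24% of all windows, and the LXR repeat in no member window and in 0.0152% of all windows. These are letter matches and do not show binding. The exact sterol response letters and LXR repeat are rare in all windows, so their absence from a member window does not show that such sites are lacking. The windows of 5 members that the results name are shown because they carry this contrast, for Apoe the first of its 3 windows. Capitals mark CCAAT, its complement ATTGG or the sterol response letters, and Apoe and Lrp1 hold none of these.
Hmgcs1 (chr13:119690101-119690400, plus strand): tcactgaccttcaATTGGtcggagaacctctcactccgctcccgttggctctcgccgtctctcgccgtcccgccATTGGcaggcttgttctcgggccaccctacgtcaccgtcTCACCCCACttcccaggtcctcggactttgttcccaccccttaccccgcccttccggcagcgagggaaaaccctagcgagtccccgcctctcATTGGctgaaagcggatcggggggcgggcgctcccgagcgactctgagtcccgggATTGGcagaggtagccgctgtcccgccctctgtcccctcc
Msmo1 (chr8:64733529-64733828, minus strand): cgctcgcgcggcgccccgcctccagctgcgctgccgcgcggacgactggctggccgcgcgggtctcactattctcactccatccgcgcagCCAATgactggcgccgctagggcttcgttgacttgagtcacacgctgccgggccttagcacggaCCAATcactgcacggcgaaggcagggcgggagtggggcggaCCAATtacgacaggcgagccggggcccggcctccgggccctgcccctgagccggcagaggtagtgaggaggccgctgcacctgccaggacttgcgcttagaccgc
Sc5d (chr9:42264251-42264550, minus strand): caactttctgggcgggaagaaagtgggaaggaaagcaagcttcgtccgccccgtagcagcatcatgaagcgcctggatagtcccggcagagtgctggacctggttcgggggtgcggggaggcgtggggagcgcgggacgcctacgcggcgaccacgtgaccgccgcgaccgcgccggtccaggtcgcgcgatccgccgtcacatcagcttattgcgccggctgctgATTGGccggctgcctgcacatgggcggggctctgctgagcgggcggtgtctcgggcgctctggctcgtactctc
Apoe (chr7:19699139-19699438, minus strand): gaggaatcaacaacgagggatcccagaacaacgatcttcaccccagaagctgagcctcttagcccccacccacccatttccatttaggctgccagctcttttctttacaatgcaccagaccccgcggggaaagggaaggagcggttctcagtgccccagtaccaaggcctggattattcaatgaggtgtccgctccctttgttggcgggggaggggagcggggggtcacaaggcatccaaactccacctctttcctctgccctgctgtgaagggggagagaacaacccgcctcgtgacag
Lrp1 (chr10:127621099-127621398, minus strand): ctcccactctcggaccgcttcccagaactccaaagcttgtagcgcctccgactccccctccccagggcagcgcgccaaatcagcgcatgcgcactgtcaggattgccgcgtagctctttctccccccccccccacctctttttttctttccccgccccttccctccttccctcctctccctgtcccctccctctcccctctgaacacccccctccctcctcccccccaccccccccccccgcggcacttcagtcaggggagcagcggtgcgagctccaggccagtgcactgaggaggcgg

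**Figure D3:**
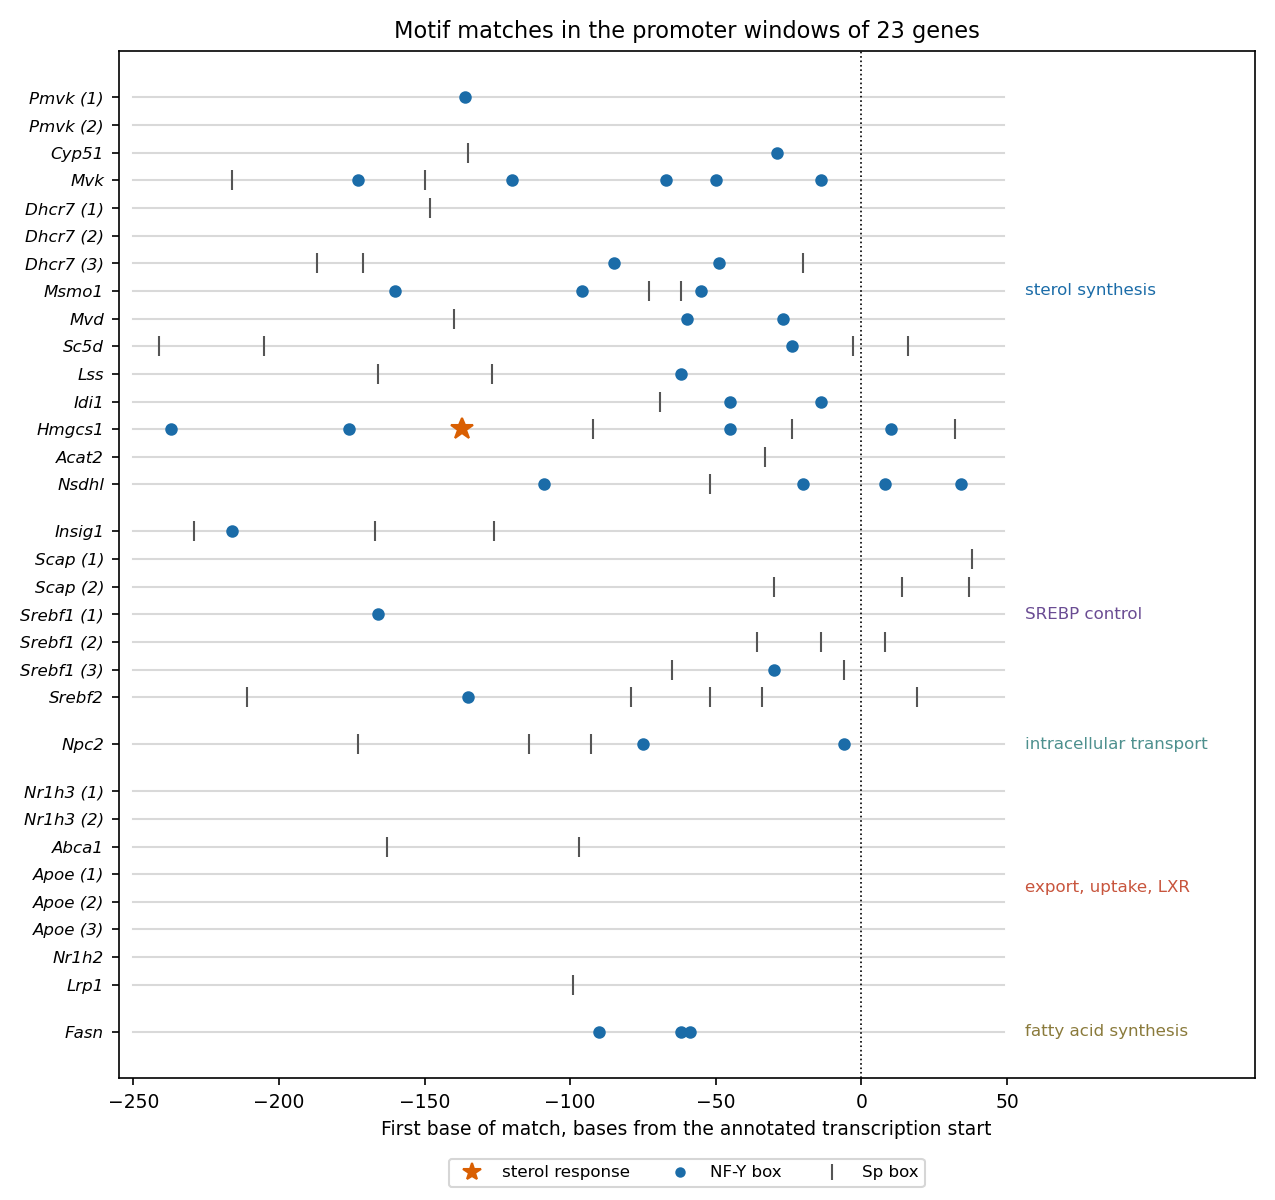
Positions of motif matches on either strand in the 32 promoter windows of 23 members, in bases from the annotated start, with genes that have several windows numbered. CCAAT matches (circles) occur for 11 of 12 synthesis enzymes and in none of the 8 export, uptake and LXR windows, and the single sterol response match (star) lies in Hmgcs1.

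The enzymes of the mevalonate and sterol pathway showed no called difference between the groups. Of the 15, 11 were tested, 0 were called, 4 had a positive and 7 a negative log2 fold change, and the median was -0.061. No tested enzyme had groups that did not overlap. The 95% intervals of 3 of the 11 lay within a 1.5-fold change and those of 9 within 2-fold. Their bounds ran from 0.460-fold to 1.90-fold, so smaller changes could have been missed. Hmgcs1 (ENSMUSG00000093930, chromosome 13, 119690379 to 119708260 in GRCm38), the synthase that makes HMG-CoA, was at 12.7, 9.95 and 15.1 CPM in dKO replicates 1 to 3, against 13.5, 13.3 and 14.5 CPM in WT. Its dKO values spanned the whole WT range, and its log2 fold change of -0.042 ± 0.15 (SE) has a 95% interval of 0.788-fold to 1.197-fold. Pmvk, phosphomevalonate kinase, was at 4.61, 3.64 and 2.68 CPM in dKO and 1.748, 4.12 and 3.06 CPM in WT, with a log2 fold change of 0.22 ± 0.33. The 2 groups overlapped. Cyp51, the lanosterol demethylase, was at 5.37, 5.58 and 5.94 CPM in dKO and 4.59, 8.55 and 7.14 CPM in WT, so that the dKO values lay inside the WT range (log2 fold change -0.19 ± 0.22).

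Sc5d and Msmo1, which act late in the pathway, had the highest log2 fold changes among the enzymes. Sc5d (ENSMUSG00000032018, chromosome 9, 42251595 to 42264256), the lathosterol desaturase, was at 7.29, 8.49 and 10.7 CPM in dKO, against 6.99, 7.92 and 5.87 CPM in WT. Only dKO replicates 2 and 3 lay above every WT library. The log2 fold change was 0.45 ± 0.20 (SE), with an unadjusted p of 0.0232 and an adjusted p of 0.286 by edgeR's quasi-likelihood test. It was 0.19 without dKO replicate 3 and 0.31 with that library thinned to the depth of the others. Msmo1, the sterol C4 methyl oxidase, was at 4.37 to 7.38 CPM in dKO and 2.53 to 6.12 CPM in WT (0.45 ± 0.24, adjusted p = 0.436). Dhcr7, which makes cholesterol from 7-dehydrocholesterol in the last step, had a negative value (-0.34 ± 0.33), so the late enzymes did not share a direction.

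The other tested enzymes had log2 fold changes smaller in size than their SE. Acat2, the cytosolic thiolase at the head of the pathway, had a log2 fold change of -0.35 ± 0.39 (SE), Mvk, mevalonate kinase, -0.061 ± 0.39, and Lss, lanosterol synthase, 0.12 ± 0.27. Sqle, squalene epoxidase, a rate-limiting enzyme of the pathway, was at 5.57 to 7.52 CPM in dKO and 6.38 to 7.65 CPM in WT (-0.063 ± 0.20). Fdft1, squalene synthase, was at 4.80 to 4.96 CPM in dKO and 4.15 to 6.12 CPM in WT (-0.072 ± 0.24). Fdft1 shares 774 exon bases with Ctsb on the opposite strand, and without a stated strand setting reads of the 2 genes there cannot be told apart. Over all members, 11 share exon bases with another annotated gene. The low-count filter left out Mvd, Idi1, Fdps and Nsdhl, which decarboxylate mevalonate diphosphate, isomerise isopentenyl diphosphate, make farnesyl diphosphate and demethylate sterols. Fdps had 2, 4 and 5 counts in dKO and 1, 2 and 0 in WT, and shares 1124 exon bases with Gm43738 on its own strand. Nsdhl had 7, 6 and 40 counts in dKO and 9, 8 and 3 in WT. Mvd was at 1.37 to 1.92 CPM in dKO and 1.53 to 1.748 CPM in WT, and Idi1 at 0.768 to 1.94 CPM in dKO and 0.874 to 1.53 CPM in WT. For these 4 enzymes the main fit gave no test of a difference.

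The 4 genes of SREBP control were all tested, 0 were called, and their median log2 fold change was 0.11. Srebf1, the SREBP gene linked most to fatty acid synthesis, was at 23.6, 20.1 and 20.2 CPM in dKO and 18.8, 19.3 and 20.9 CPM in WT (log2 fold change 0.10 ± 0.13, SE). Srebf2, the SREBP gene linked most to cholesterol synthesis, was at 14.97, 19.4 and 18.02 CPM in dKO and 19.9, 17.1 and 17.3 CPM in WT (-0.058 ± 0.13). The groups overlapped for both. Insig1, which SREBPs turn on and which in turn retains SCAP, was at 8.25, 9.71 and 11.8 CPM in dKO and 8.30, 10.1 and 8.67 CPM in WT (0.23 ± 0.18). Only dKO replicate 3 lay above every WT library for Insig1. Scap was at 9.95 to 13.6 CPM in dKO and 9.18 to 11.7 CPM in WT (0.12 ± 0.17). The 95% intervals of the 4 genes ran from 0.8002-fold to 1.497-fold.

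Of the 3 genes that move sterols inside the cell, 0 were called. Npc2, the soluble lysosomal protein that hands cholesterol to the membrane protein NPC1, was at 42.4, 38.6 and 41.5 CPM in dKO and 36.9, 31.4 and 38.3 CPM in WT. All dKO libraries lay above all WT libraries, the gap between dKO replicate 2 and WT replicate 3 being the narrowest, and the log2 fold change was 0.20 ± 0.11 (SE; adjusted p = 0.443 by edgeR). Npc1 was at 15.2, 16.0 and 16.5 CPM in dKO and 18.1, 16.8 and 14.8 CPM in WT (-0.053 ± 0.14). Stard4, a cytosolic carrier of cholesterol, was at 4.22, 4.37 and 4.44 CPM in dKO and 3.50, 5.70 and 4.85 CPM in WT (-0.059 ± 0.26). For both, the dKO values lay within the WT range.

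Neither tested fatty acid gene was called, and Scd2 had the smallest SE of the 25 tested members. Scd2 was at 115.7, 114.05 and 117.99 CPM in dKO and 117.1, 116.0 and 112.5 CPM in WT. Its log2 fold change of 0.011 ± 0.093 (SE) has a 95% interval of 0.886-fold to 1.146-fold. Fasn, fatty acid synthase, was at 49.7, 38.1 and 38.1 CPM in dKO and 38.7, 42.5 and 36.2 CPM in WT (0.091 ± 0.11), and only dKO replicate 1 stood above the WT libraries. Scd1, the related desaturase of liver and fat, had 12, 5 and 21 counts in dKO and 6, 4 and 7 in WT and did not pass the filter.

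Of the 7 export, uptake and LXR genes, 5 were tested, 0 were called, and the median log2 fold change was 0.032. The groups did not overlap for 3 of the 5 (Apoe and Nr1h2 higher, Lrp1 lower), against 17.0% of all genes tested. Apoe (ENSMUSG00000002985, chromosome 7, 19696109 to 19699188), the carrier protein of glial lipoproteins, was at 743, 692 and 701 CPM in dKO, against 630.4, 623 and 673 CPM in WT. The 3 dKO libraries all exceeded the 3 WT libraries. The log2 fold change was 0.15 ± 0.11 (SE), or 1.11-fold with a 95% interval of 0.954 to 1.29, and the adjusted p was 0.637 by edgeR's quasi-likelihood test. limma-voom, which gave the same size (0.14 ± 0.037), called it (adjusted p = 0.0402), while over all alternatives its adjusted p ran from 0.0402 to 0.802.

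Lrp1 stood lower in dKO without passing the test. Lrp1 (ENSMUSG00000040249, chromosome 10, 127538161 to 127621148), a large endocytic receptor that binds apolipoprotein E, was at 89.4, 90.3 and 77.6 CPM in dKO, against 107.7, 110.9 and 93.3 CPM in WT. Every dKO library lay below every WT library. The log2 fold change was -0.29 ± 0.096 (SE), or 0.819-fold with a 95% interval of 0.717 to 0.936. Its unadjusted p was 0.00385 and its adjusted p 0.116 by edgeR's quasi-likelihood test. A robust dispersion fit (0.0393) and limma-voom (0.0224) called it, DESeq2 did not (0.335), and leaving out single libraries gave adjusted p of 0.0665 to 0.487. Without dKO replicate 3 the log2 fold change was -0.21. Scaling by library total alone turned its sign (0.86), with the median of all genes tested then at 1.21, so that Lrp1 still lay below that median.

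No difference was detected for the exporters themselves. Abca1, which loads lipid onto apolipoproteins, was at 21.3, 21.4 and 21.5 CPM in dKO and 21.2, 22.5 and 20.7 CPM in WT. Its log2 fold change of 0.0016 ± 0.12 (SE) has a 95% interval of 0.846-fold to 1.18-fold. Abcg1, its partner exporter, was at 7.97 to 10.4 CPM in dKO and 7.43 to 9.19 CPM in WT. Its log2 fold change was 0.032 ± 0.19, with a 95% interval of 0.790-fold to 1.32-fold. Nr1h2, which encodes LXR beta, was at 6.33, 7.28 and 5.88 CPM in dKO and 5.46, 4.75 and 3.32 CPM in WT. The dKO libraries lay above the WT libraries (0.46 ± 0.24; adjusted p = 0.416 by edgeR), from 33, 30 and 90 counts in dKO and 25, 15 and 13 in WT. Nr1h3, which encodes LXR alpha, had 4, 3 and 15 counts in dKO and 4, 4 and 8 in WT, and Lpl had 3, 1 and 12 in dKO and 2, 1 and 3 in WT. Neither passed the filter.

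The medians of the synthesis genes and of the export, uptake and LXR genes were compared without a test. The difference of the 2 medians, synthesis minus the other, was -0.092 on the log2 scale. Within groups, medians by library had an SD of 0.0583 for synthesis and 0.101 for export, uptake and LXR. The difference was not formed by library, so no error is given for it. Without dKO replicate 3 the difference was -0.31, from medians of -0.15 for synthesis and 0.16 for export, uptake and LXR. The 15 synthesis enzymes summed to 62.6, 59.9 and 70.8 CPM in dKO, against 61.6, 66.2 and 64.8 CPM in WT. The synthesis sum therefore overlapped, with dKO replicate 3 the highest and dKO replicate 2 the lowest library of the 6. The 7 export, uptake and LXR genes summed to 871, 820 and 816 CPM in dKO and 774, 772 and 802 CPM in WT. All dKO sums lay above all WT sums. Without Apoe, the other 6 summed to 128.8, 128.1 and 114.7 CPM in dKO and 143.1, 148.9 and 129.05 CPM in WT, all dKO below all WT. That sum is mostly Lrp1, a receptor of uptake and not of export. Without both genes the remaining 5 summed to 39.3, 37.9 and 37.1 CPM in dKO and 35.4, 38.0 and 35.7 CPM in WT, which overlapped. The direction of the export, uptake and LXR sum therefore turned on whether Apoe was counted. The ratio of synthesis to that sum was 0.0718, 0.0731 and 0.0869 in dKO and 0.0797, 0.0858 and 0.0807 in WT. Without Apoe the ratio was 0.486, 0.468 and 0.618 in dKO and 0.431, 0.445 and 0.502 in WT. Both ratios overlapped between groups.

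The ratio of Apoe to Lrp1, which no scaling of the libraries can move, was 8.30, 7.66 and 9.03 in dKO and 5.85, 5.62 and 7.21 in WT. The 3 dKO ratios lay above the 3 WT ratios, a pair chosen after its values were seen and given without a test. Apoe made up 60.3% ± 0.354 of the CPM of all 32 members in dKO and 57.5% ± 1.77 in WT (SD, n = 3 each).

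**Figure D4:**
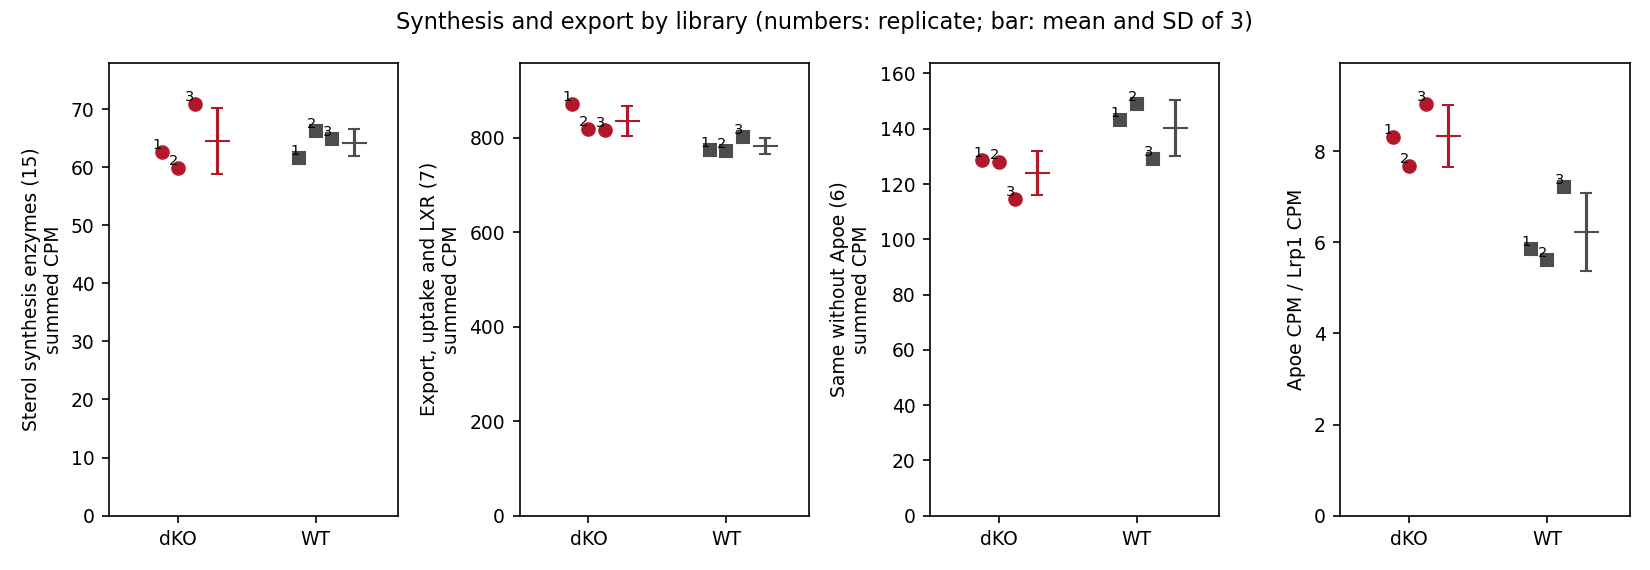
Summed CPM of the 15 synthesis enzymes, of the 7 export, uptake and LXR genes with and without Apoe, and the ratio of Apoe to Lrp1, one point per library with its replicate number and the mean and SD of 3 beside it. The synthesis sums overlap between dKO (59.9 to 70.8) and WT (61.6 to 66.2), and the Apoe to Lrp1 ratio is 7.66 to 9.03 in dKO and 5.62 to 7.21 in WT. The separation of that ratio follows from the values of Apoe and Lrp1 taken singly.

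The 9 Müller glia and astrocyte markers summed to 2737 to 2907 CPM in dKO and 2665 to 2750.05 CPM in WT, overlapping ranges. Among them 6 had a positive and 3 a negative log2 fold change, and only Gfap was called (higher, log2 fold change 0.69 ± 0.12, SE). Apoe over that sum was 0.258, 0.253 and 0.241 in dKO and 0.229, 0.234 and 0.245 in WT, which overlapped as well. That sum holds Clu, which is also counted among the further pathway genes. Clu was at 729 ± 31.9 CPM in dKO and 641 ± 29.3 CPM in WT (SD, n = 3 each), all dKO above all WT. The 12 microglia and macrophage markers summed to 866 to 910.2 CPM in dKO and 799 to 886 CPM in WT, with 8 positive and 4 negative log2 fold changes and only Lyz2 called (higher, 0.50 ± 0.097). No marker of either list was at 0 in all libraries. Lrp1 over the Müller sum was 0.0267 to 0.0330 in dKO and 0.0340 to 0.0416 in WT, ranges that did not overlap. Endothelial and mural markers summed to 385 to 387 CPM in dKO and 362 to 421 CPM in WT, and none of 6 tested was called. Rod markers summed to 339 to 417 CPM in dKO and 175 to 202 CPM in WT, with 7 of 8 called higher, and bipolar markers to 132 to 133 CPM in dKO and 181 to 194 CPM in WT, with 4 of 7 called lower. RGC markers summed to 29.6 to 30.5 CPM in dKO and 24.0 to 26.8 CPM in WT, with Nefl the 1 called of 3 tested (higher). Nefl had a mean of 7.16 CPM in dKO and 2.24 CPM in WT. The other tested markers were Thy1 (10.3 and 10.7 CPM) and Isl1 (4.24 and 7.05 CPM), and Isl1 is counted in the bipolar list too. B and plasma cell markers summed to 278 to 307 CPM in dKO and 325 to 423 CPM in WT. Among the other lists, Gnat2 of the cone list, Gzma of the T and NK list and Igkc of the B and plasma list were called lower and Slc6a9 of the amacrine list higher, while no oligodendrocyte marker was called and no pigment epithelium marker was tested. The part that any of these cells had in the values of Apoe and Lrp1 was not tested.

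The rest of the pathway also held no called gene. Of 60 further genes in the table, 46 were tested and 0 were called in either direction by edgeR, against 1.92% of all genes tested. An unadjusted p under 0.05 by edgeR's quasi-likelihood test was reached by 2 of the 46, or 4.35% against 12.5% of all genes tested. The median log2 fold change was 0.026. The groups did not overlap for 10 of the 46, or 21.7% against 17.0% of all genes tested. Of those 10, 7 lay higher in dKO (background 8.66%) and 3 lower (background 8.31%). Among 6 tested further synthesis genes, the smallest p belonged to Acat1, the mitochondrial thiolase (log2 fold change -0.35 ± 0.23, SE), and Lbr, the lamin B receptor with sterol reductase activity (-0.17 ± 0.18). Among 10 SREBP control and target genes, Acss2, which makes acetyl-CoA from acetate (0.52 ± 0.31), and Fads2, a fatty acid desaturase (0.17 ± 0.12), had the smallest p. Among 19 export, uptake and nuclear receptor partners, Nrip1, a co-regulator of nuclear receptors, was at 11.3, 13.8 and 14.5 CPM in dKO and 18.4, 18.7 and 18.1 CPM in WT. The dKO libraries lay below the WT libraries, and the log2 fold change of -0.44 ± 0.14 had an adjusted p of 0.082 by edgeR. Ncor1, a co-repressor that binds unliganded LXR, was at 23.03, 22.6 and 24.2 CPM in dKO and 27.3, 29.1 and 29.8 CPM in WT (-0.29 ± 0.12; adjusted p = 0.237). It too had groups that did not overlap. Among 11 genes of intracellular transport, Osbpl8, an oxysterol-binding protein relative (0.27 ± 0.15), and Stard3, a late endosomal sterol carrier (0.42 ± 0.26), had the smallest p.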

How the data were processed

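Total RNA of FACS-sorted cells was made into stranded total RNA libraries, per the labels' protocols. The authors deposited unnormalised counts of reads for each Ensembl gene. The tools named are STAR 2.7.0d and DESeq2 1.22.2, with the build GRCm38, per the submitters' processing notes. The sources used here do not give the counter, its strand setting or the annotation release.

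Counts were filtered with filterByExpr (minimum count 10, minimum total 15), scaled by TMM (factors 0.641 to 3.43) and tested with edgeR 4.0.16 in R 4.3.3 by the quasi-likelihood F test, two-sided, on the group, with Benjamini-Hochberg adjustment over 8444 genes. The steps were tested on simulated data. The ribosomal RNA row stayed in. Log2 fold changes are dKO over WT, and their SE is the value divided by the square root of F. Positions and merged exon lengths came from GENCODE M21 on GRCm38. Libraries of the same group differed beyond counting noise (chi-square per degree of freedom 1.17 to 3.46), and each library counted as 1 replicate. Intervals on folds are 95% and assume the fitted spread. Alternatives used limma 3.58.1 and DESeq2 1.42.0. Every member is named, with all libraries for the 3 most abundant per role, those with an unadjusted p under 0.05 and those whose tested groups did not overlap. Of the other pathway genes, the 2 with the smallest p per group are named. Members, lists and rules were chosen with earlier results of these data known. Figures were drawn with matplotlib 3.10.9.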

Additional observations from a re-analysis of the deposited data

How the results depend on the processing

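Under the alternatives run no member was called, except Lrp1 with limma-voom and with a robust dispersion fit (1 member called lower in each) and Apoe with limma-voom (1 called higher). Library-total scaling shifted the median of all genes by 1.21 on the log2 scale. It moved the medians to 1.17 for synthesis and 1.222 for export, uptake and LXR, so relative to that shift neither stood apart. It called 3 genes higher and 0 lower. Without that scaling, 11 of the 25 tested members kept their sign in every other setting that tested them (15 for Acat2, which the filter left out without the ribosomal RNA row, and 16 for the others), Apoe and Lrp1 among them (Lrp1 was positive under library-total scaling, 0.86). The other 14, with main values up to 0.23 in size, changed sign at least once. DESeq2 called 26 genes higher and 26 lower over all genes, and an adjusted p under 0.1 called 108 higher. Leaving out single libraries gave 29 to 71 genes called higher and 61 to 115 lower, with the fewest in each direction without WT replicate 1. It gave a synthesis median of -0.15 to 0.042, the sign turning without dKO replicate 2 (0.042) or WT replicate 3 (0.040). The export, uptake and LXR median was -0.014 to 0.16. The difference was -0.31 to -0.0060, the outer value without dKO replicate 3. The cause of these shifts was not tested. Same-numbered libraries correlated by 0.0262, 0.0129 and 0.0287 in their deviations from the group means, below 0.1, though each library correlated best with its own number. Deviations from a group mean are tied to each other, so that ranking cannot show whether same-numbered libraries are pairs. The design states no pairing. With the replicate number as a block, 58 genes were higher and 100 lower, 0 members were called, and the difference of medians was -0.16. Intervals that reach past a 1.5-fold change were most frequent among the sterol enzymes, at 8 of the 11 tested. The reason for their width was not tested.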
